A study of Danio rerio with 6 samples.

Results

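RNA-seq libraries of sorted cardiac endothelial cells from control zebrafish (CtrlK), made 7 days after ventricular resection, the removal of part of the ventricle, are described here. They are the 3 libraries titled CtrlK, of 6 in the series, taken by title, and no other group is compared. The fish were adults of the Tu strain. Per the treatment protocol they carried kdrl:eGFP, a reporter that labels endothelium green, and a silent ubi:loxp-DsRed-stop-loxp-DN-xBrg1 transgene, which encodes a dominant-negative Xenopus Brg1 behind a stop cassette. They lacked the kdrl:CreER driver that would remove the cassette, and received 4-hydroxytamoxifen (4-HT) for 3 days before resection. Other labels call the CtrlK fish wild-type siblings or untreated, and the labels do not settle which account holds. Ventricles without atrium and bulbus arteriosus, from about 15 hearts, were digested with collagenase, and GFP+ cells were collected by flow sorting. Their RNA was amplified as cDNA by MALBAC, a quasi-linear amplification for small inputs. Whether the 3 replicates are separate pools of fish is not said in the labels, so every SD measures the spread between libraries, which may be technical.

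The zebrafish heart regrows muscle after part of the ventricle is lost. Its endocardium, the endothelial lining of the chambers, and its coronary endothelium respond to the wound and send signals to cardiomyocytes, among them retinoic acid. In the Notch pathway a ligand on one cell triggers cleavage of a receptor on its neighbour, and the freed receptor fragment switches on target genes in the nucleus.

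The libraries held few reads on genes. Gene counts came to 174371, 207325 and 216713 in replicates 1, 2 and 3, which was 1.15% ± 0.108 (SD, n = 3) of everything the deposited tables account for. Reads under the counter's alignment quality minimum made up 58.2% ± 0.0493 and reads that did not align 25.1% ± 0.240. Reads outside any gene outnumbered gene counts 6.003, 5.61 and 4.85 times in replicates 1, 2 and 3. A library showed a count for 15810 to 16021 genes. Levels are given as CPM, the count of a gene per 1000000 gene counts of its library. A count of 0 allows a level of up to 3 counts, or 13.8 to 17.2 CPM, and 10 counts equal 46.1 to 57.3 CPM. Such limits cover counting error only, since amplified reads without molecular identifiers are not independent molecules. CPM is not divided by transcript length, so an order of genes by CPM is the order in which they hold counts, not an order of transcript numbers.

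Of 32520 gene rows, 2642 had at least 10 counts in all 3 libraries, which is 8.12% of the rows. These genes are called kept below. They held 71.4% ± 2.06 (SD, n = 3) of the gene counts, while 11621 gene rows had no count in any library. Mean levels of kept genes ran from 50.6 to 16918 CPM with a median of 149 CPM, against 3.22 CPM over all gene rows. There were 87 kept genes at 1000 CPM or more, 1874 between 100 and 1000 CPM and 681 under 100 CPM. The edge of the rule was thinly separated: 190 genes were kept with a lowest count of exactly 10, and 242 were left out with a lowest count of 9.

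The counts were spread over many genes, and several of those at the top had general cellular roles. The first of them, malat1, is a long non-coding RNA retained in the nucleus. It had 13540.1, 15073 and 22139.9 CPM in replicates 1, 2 and 3, a mean of 16918 ± 4587 CPM (SD, n = 3), which was 1.69% ± 0.459 of the gene counts. AHSA1 (ENSDARG00000100317), a co-chaperone that stimulates the ATPase of HSP90, followed with 5483, 9029 and 10170.1 CPM. For both genes replicate 1 was lowest and replicate 3 highest. RPL6, a protein of the large ribosomal subunit, had 5339, 7901 and 7969 CPM, so that replicates 2 and 3 stood together above replicate 1. An ID without a symbol (ENSDARG00000080337) had 4329.9, 7418 and 9386 CPM. ALDOA (ENSDARG00000011665), the aldolase of glycolysis, had 5109.8, 6579 and 7479.9 CPM. For both, replicate 1 was again lowest and replicate 3 highest.

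Next came cirbpa, which encodes a cold-inducible RNA-binding protein, with 4083, 6077 and 6972 CPM. The uncharacterised si:dkey-238c7.12 had 3573, 5132 and 5173 CPM. Then came marcksl1a, of the MARCKS family of membrane and actin binding proteins, with 3699, 4365 and 5639 CPM. The calmodulin gene calm3b had 3487, 3598 and 5653 CPM, where replicates 1 and 2 lay close together and replicate 3 apart. CAV1, caveolin 1, forms the caveolae in which endothelial membranes are rich. It had 3682, 3386 and 4485 CPM, a mean of 3851 ± 569 CPM (SD, n = 3), with a smaller spread for its mean than the 9 genes above it. Together these 10 genes held 5.23%, 6.86% and 8.51% of the gene counts in replicates 1, 2 and 3.

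**Figure D1:**
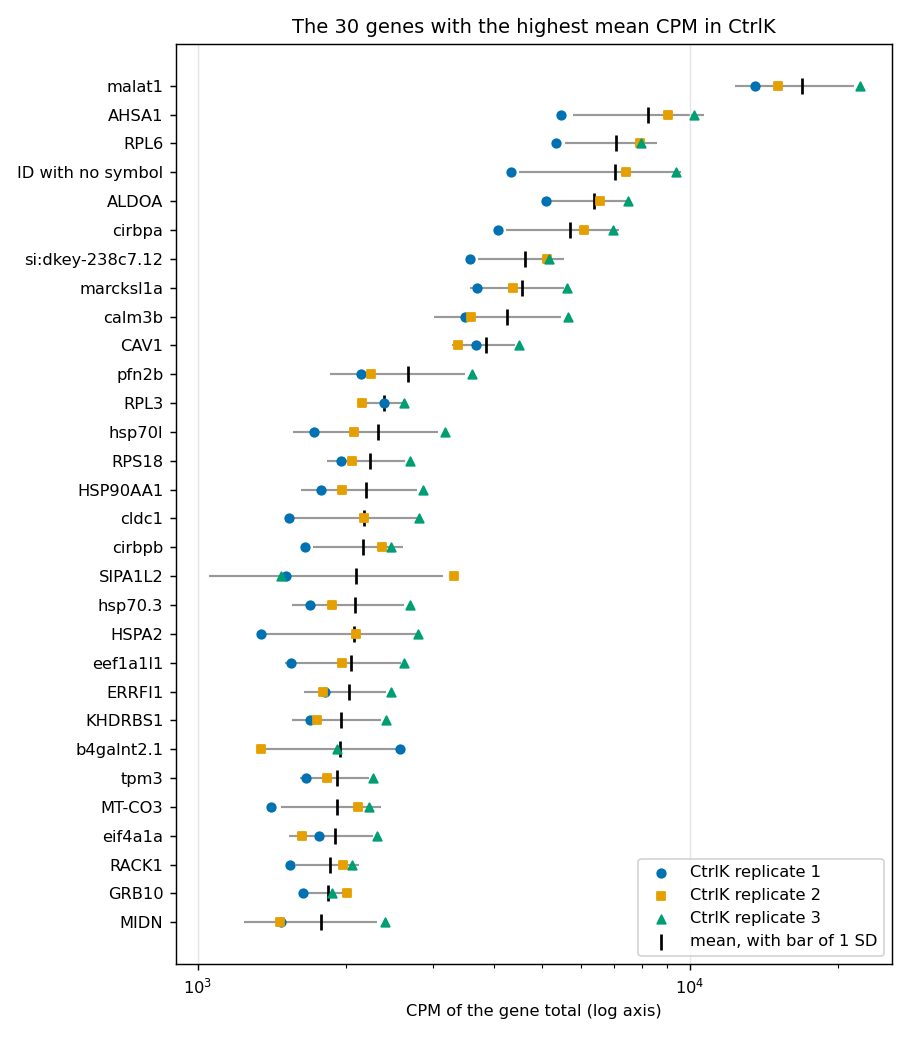
The 30 kept genes of highest mean CPM, on a log axis of CPM of the gene total, with 1 symbol per library, a tick at the mean and a bar of 1 SD (n = 3). Replicate 3 is the highest library for 27 of the 30 genes and replicate 1 the lowest for 23.

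The remaining genes of the first 30, from 1779.9 to 2669 CPM on average, included many of translation, protein folding and RNA binding. Among them were the profilin gene pfn2b, the tropomyosin gene tpm3, the second cold-inducible gene cirbpb and the RNA-binding protein gene KHDRBS1. Regulators of growth factor signalling were there too, namely ERRFI1, a feedback inhibitor of the EGF receptor (2025 ± 384 CPM), and GRB10 (ENSDARG00000002013), an adaptor of the insulin receptor (1839.7 ± 191 CPM, SD, n = 3 each). Replicate 3 was not the highest library for 3 of the 30 genes. GRB10 had 1634, 2011 and 1873 CPM, and SIPA1L2 had 1514, 3309 and 1477 CPM, high in replicate 2 alone. The glycosyltransferase gene b4galnt2.1 had 2581, 1346 and 1915 CPM and was the one gene of the 30 that was highest in replicate 1.

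The tilt towards replicate 3 showed at the top of the ranking. Replicate 3 was the highest library for 27 of the first 30 genes and 66 of the first 100, but for 814 of all 2642 kept genes, fewer than replicate 1 (965) or replicate 2 (863). CPM sums to the same total in each library, so more for the first genes leaves less for the rest. The low number of 814 is therefore not separate from the tilt at the top. The first 100 genes held 16.6%, 19.4% and 22.9% of the gene counts in replicates 1, 2 and 3. Gene totals stood in the same order, and the excess of reads outside genes stood in the reverse order. The part of either in the tilt was not tested.

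The plot of shares of function lists sorts the counts by gene role. For every list, the number of kept members is to be read against the 8.12% of all gene rows. The 25 lists together took 16.1% ± 1.69 (SD, n = 3) of the gene counts, and 22 IDs stood in more than 1 list. They covered 14 of the first 30 genes and 29 of the first 100, while 2 of the first 100, mb and COL5A1, stood in one of 12 lists of cell type markers. Replicate 3 had the highest share for 17 of the 25 lists and replicate 1 the lowest for 15.

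**Figure D2:**
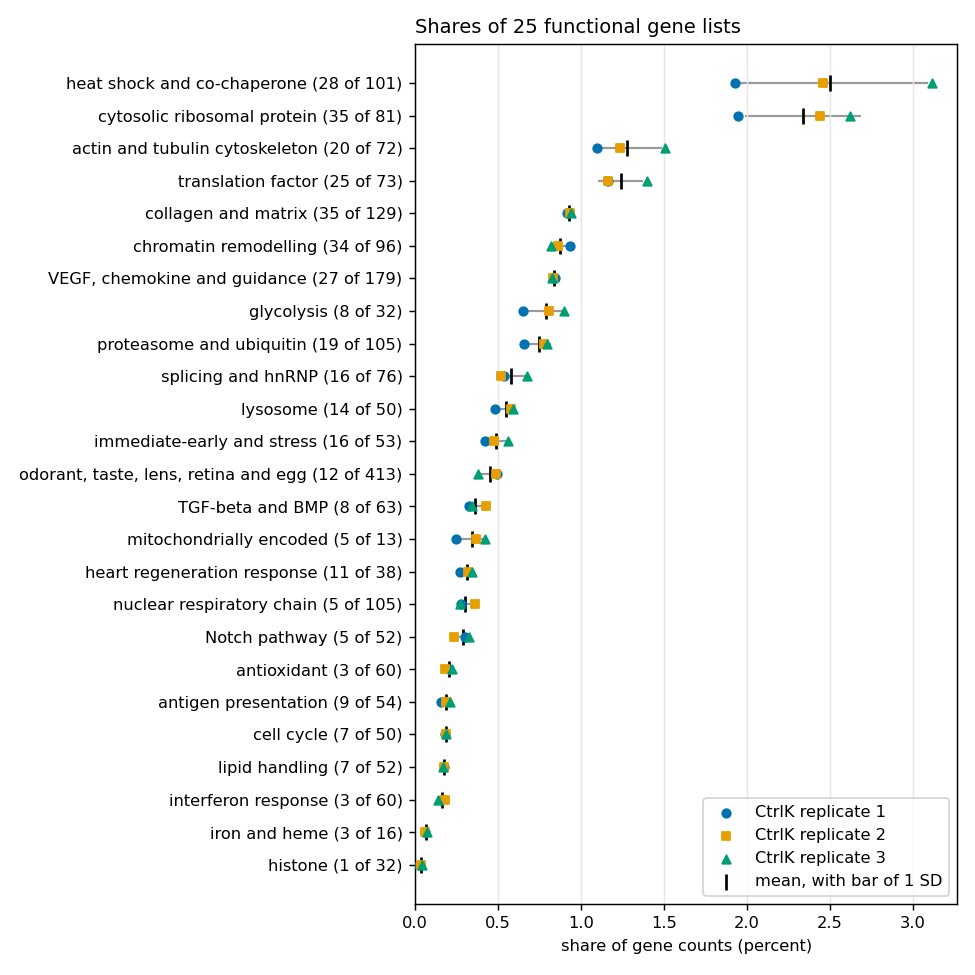
Share of gene counts, in percent, of each of 25 function lists in the 3 CtrlK libraries, with a tick at the mean and a bar of 1 SD (n = 3); the number of kept members of all IDs in a list stands beside its name. Heat shock and co-chaperone genes (1.93% to 3.11%) and ribosomal protein genes (1.95% to 2.62%) have the highest shares.

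Heat shock proteins and their co-chaperones fold new or damaged proteins, and 28 of their 101 genes were kept. Their share was 1.93%, 2.45% and 3.11% in replicates 1, 2 and 3, a summed level of 24984 ± 5931 CPM (SD, n = 3), and AHSA1 made up 32.9% of it. The HSP70 gene hsp70l, which is strongly heat-inducible in zebrafish, had 1720.5, 2074 and 3175 CPM. HSP90AA1 had 1778, 1963 and 2866 CPM, and HSPA2, of the HSP70 family, had 1342, 2093 and 2801 CPM. The order of libraries was the same in all 3. A further HSP70 gene, hsp70.3, reached 2091 ± 539 CPM, and STIP1, which links HSP70 to HSP90, 1079 ± 178 CPM (SD, n = 3 each). Of the 28 kept members, 16 were highest in replicate 3, 7 in replicate 1 and 5 in replicate 2. Over all kept genes these shares were 30.8%, 36.5% and 32.7%. The median over all 101 IDs was 10.2 CPM, so that a few genes carried the share.

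Cytosolic ribosomal protein genes had 35 of 81 IDs kept (43.2%, against 8.12% of all gene rows). Their share was 1.95%, 2.44% and 2.62%, of which RPL6 was 30.3%. RPL3 had 2386, 2161 and 2621 CPM, and RPS18, of the small subunit, had 1956, 2055 and 2699 CPM. The step from RPL6 at 7069.6 to RPL3 at 2389 and RPL14 at 888 ± 279 CPM (SD, n = 3) shows how unevenly the genes of one complex were counted. Translation factors had 25 of 73 kept, with a share of 1.24% ± 0.135 (SD, n = 3). Elongation factor eef1a1l1, which brings aminoacyl-tRNA to the ribosome, had 2047 ± 546 CPM, and the initiation helicase gene eif4a1a had 1901 ± 366 CPM. EEF1G was nearly level over the libraries, with 912, 887 and 932 CPM.

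Cytoskeletal genes had 20 of 72 kept and a share of 1.28% ± 0.210 (SD, n = 3). Their first members were pfn2b with 2151, 2248 and 3608 CPM, tpm3 with 1921 ± 311 CPM and the keratin gene krt8 with 1474 ± 410 CPM. The cytoplasmic actin gene actb1 had 981, 1225 and 1297 CPM, and flna, filamin A, an actin crosslinker, had 1006 ± 228 CPM (SD, n = 3). For pfn2b replicate 3 stood apart from the other libraries, and for actb1 replicate 1 stood below them.

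Few genes held most counts of the glycolysis and mitochondrially encoded lists. The glycolysis list took 0.785% ± 0.125 (SD, n = 3) of the gene counts, and 81.4% of that was ALDOA. The next member, the phosphoglycerate mutase gene pgam1a, had 424, 227 and 328 CPM. Lactate dehydrogenases followed, LDHB with 143, 246 and 129 CPM and LDHA with 86.0, 135 and 148 CPM. Of 13 listed mitochondrially encoded genes, among them those of ND, CO, CYB and ATP subunits, 5 were kept (38.5%). The list's share was 0.246%, 0.365% and 0.419%. MT-CO3, a subunit of cytochrome oxidase, made up 55.9% of it with 1411, 2117 and 2224 CPM, and MT-CO1 had 436, 531 and 697 CPM. Replicate 1 was lowest for both. Nuclear genes of the respiratory chain had 5 of 105 kept (4.76%, under the 8.12% of all gene rows). Among these were ATP5F1B of the ATP synthase at 916 ± 256 CPM and NDUFA4 at 822 ± 136 CPM (SD, n = 3 each).

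Collagen and matrix genes had 35 of 129 kept, with an even share of 0.912%, 0.932% and 0.939%. COL5A1 had 1227, 969 and 1407 CPM, a mean of 1201 ± 220.1 CPM (SD, n = 3). The collagen genes col6a1 and col5a3a had 663 ± 181 and 529.5 ± 184 CPM. THBS1 (ENSDARG00000010785), thrombospondin 1, an inhibitor of angiogenesis, had 837, 555 and 452 CPM and was highest in replicate 1. The matrix metalloproteinase inhibitor gene TIMP2 was kept as 2 copies, ENSDARG00000075261 at 298 ± 44.6 and ENSDARG00000061226 at 199.6 ± 58.6 CPM (SD, n = 3 each). Of the 35 kept members, 11 were highest in replicate 1, 11 in replicate 2 and 13 in replicate 3. Over all kept genes the split was similar, with 36.5%, 32.7% and 30.8% highest in replicates 1, 2 and 3.

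Chromatin remodelling genes had 34 of 96 kept (35.4%), and their share ran against the common order, at 0.934%, 0.858% and 0.819% in replicates 1, 2 and 3. No single gene carried it. The first member, smarca2, is the gene of BRM, the ATPase that can take the place of BRG1 in SWI/SNF complexes. It held 6.47% of the list with 539, 642 and 508 CPM. The deacetylase gene HDAC1 had 499, 434 and 549 CPM. EZH2, which methylates lysine 27 of histone H3, was high in replicate 1, with 487, 212 and 217 CPM. Of the 34 kept genes, 15 were highest in replicate 1 and 9 in replicate 3, beside 36.5% and 30.8% of all kept genes.

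Endothelial markers were looked at as 33 IDs, of which 8 were kept (24.2%, against 8.12% of all gene rows). Their levels are to be read beside those of genes of organs not sampled, given below. The list summed to 1990.0, 2132 and 2404 CPM in replicates 1, 2 and 3, a mean of 2175 ± 210.4 CPM (SD, n = 3). Its first member was cdh5, VE-cadherin, the adhesion protein of endothelial junctions, with 442, 540.2 and 923 CPM and a mean of 635 ± 254 CPM. The VEGF receptor gene flt1 had 350, 212 and 254 CPM, and vwf, von Willebrand factor, had 149, 149.5 and 291 CPM. Thus cdh5 and vwf were highest in replicate 3 and flt1 in replicate 1. The multimerin gene mmrn2a had 258, 193 and 111 CPM. FLI1, an ETS transcription factor of endothelial and blood lineages, had 109, 169 and 180.0 CPM. The libraries did not share one order for these genes.

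The last 3 kept endothelial markers were lower, and EGFL7 and rasip1 came close to the limit of 10 counts in replicate 3. KDR, a VEGF receptor, had 126, 106 and 78.4 CPM. EGFL7, a secreted protein of endothelium, had 109, 91.6 and 55.4 CPM. The gene rasip1, needed for the vascular lumen, had 97.5, 121 and 46.1 CPM, the last of these being exactly 10 counts. The receptor gene kdrl, whose promoter drives the reporter used for sorting, was itself not kept, with 8, 11 and 7 counts, or 43.7 ± 10.5 CPM (SD, n = 3). PECAM1 was counted as pecam1a with 3, 11 and 8 counts and pecam1b with 0, 2 and 4. TIE1 had 2, 13 and 10 counts, and the transcription factor gene ERG 2, 4 and 2. TAL1, myct1b and one CLDN5 copy (ENSDARG00000043716) had no count in any library. Several defining endothelial genes thus missed the limit of 10 counts. The counts of kdrl were still above 3 in every library, while TAL1 and myct1b had none.

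**Figure D3:**
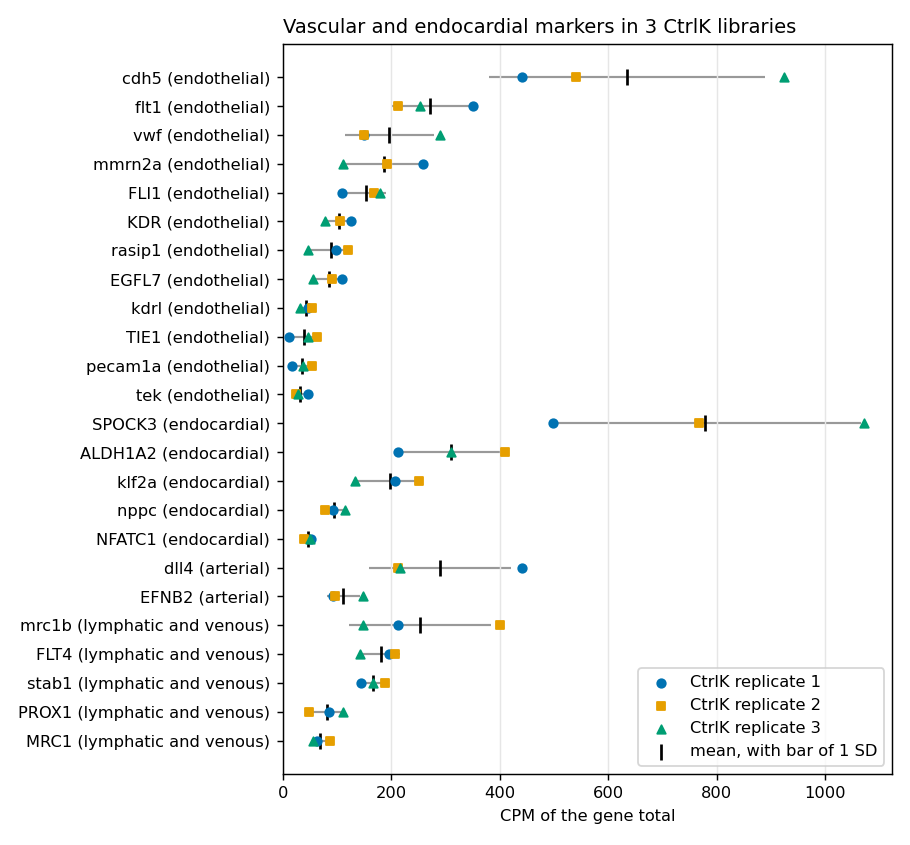
CPM of the gene total for vascular and endocardial markers, kept ones and kdrl, TIE1, pecam1a, tek and NFATC1, in the 3 CtrlK libraries, with a tick at the mean and a bar of 1 SD (n = 3). SPOCK3 and cdh5 are the highest, both with replicate 3 on top, while kdrl stays at 32.3 to 53.1 CPM.

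Endocardial markers had 4 of 13 IDs kept (30.8%) and summed to 1222, 1703 and 1961 CPM, a mean of 1628 ± 375 CPM (SD, n = 3). SPOCK3, a secreted proteoglycan, held 47.8% of that sum with 499, 767 and 1071 CPM. ALDH1A2, which makes retinoic acid and is induced in endocardium and epicardium of injured zebrafish hearts, had 212, 410.0 and 309 CPM. Without SPOCK3 no single order of libraries was left, for klf2a, a transcription factor that responds to blood flow, had 206, 251 and 134 CPM. The natriuretic peptide gene nppc had 91.8, 77.2 and 115 CPM. NFATC1, a transcription factor that defines endocardium, had 9, 8 and 11 counts and was not kept. The endocardial gene heg1 missed the limit with 15, 9 and 23 counts, and HAS2, the hyaluronan synthase of cardiac valves, had no count.

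Arterial genes had 2 of 11 kept (18.2%, against 8.12% of all gene rows). The Notch ligand gene dll4 had 442, 212 and 217 CPM, high in replicate 1, and EFNB2 (ENSDARG00000020164), an ephrin of arterial endothelium, had 91.8, 96.5 and 148 CPM. SOX17 had no count. Lymphatic and venous genes had 5 of 13 kept. These were the endocytic receptor genes mrc1b with 212, 400.3 and 148 CPM and stab1 with 143, 188 and 166 CPM, the VEGF-C receptor gene FLT4 with 195, 207 and 143 CPM, and, lower, PROX1 and MRC1. Of these 5 genes, 4 were highest in replicate 2, beside 32.7% of all kept genes. The lymphatic hyaluronan receptor genes were nearly uncounted, with 0, 0 and 8 counts for lyve1b and 1, 0 and 1 for lyve1a.

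Of the Notch pathway, 5 of 52 genes were kept (9.62%, close to the 8.12% of all gene rows), and the list took 0.287% ± 0.0476 (SD, n = 3) of the counts. Among receptors, NOTCH1 (ENSDARG00000103554) had 126, 106 and 83.1 CPM, from 22, 22 and 18 counts, and was kept. The other NOTCH1 copy (ENSDARG00000052094) had 22.9, 43.4 and 106 CPM, from 4, 9 and 23 counts, and was not kept. NOTCH3, a receptor of mural cells, had 126, 28.9 and 96.9 CPM, and notch2 had 28.7, 14.5 and 41.5 CPM. Neither was kept. Among ligands, dll4 is given above and jag2b was low and even at 63.1, 72.4 and 73.8 CPM. The protease gene adam10a, whose product sheds the receptors, had 591, 627 and 808 CPM. NRARP (ENSDARG00000091419), a Notch target that feeds back on the pathway, was its first member with 814, 689.7 and 1191 CPM. Reads without a unique alignment are in no gene count, so counts of close copies such as the NOTCH1 pair leave out shared reads. How far this lowered the count of either copy was not tested. The strand setting is not known.

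Genes of VEGF, chemokine and guidance signalling had 27 of 179 kept (15.1%, against 8.12% of all gene rows). Their summed share was nearly the same in each library, at 0.843%, 0.833% and 0.825%. The first member was the semaphorin gene sema3ga, a secreted guidance cue, with 786, 1355 and 914 CPM. EFNA5, an ephrin, had 791, 246 and 817 CPM, low in replicate 2 alone. The Eph receptor gene EPHB3 (ENSDARG00000031548) had 275, 588 and 517 CPM. The repellent SLIT2 had 241, 304 and 392 CPM, and NRP2 (ENSDARG00000038446), a co-receptor for semaphorins and VEGF-C, had 247, 449 and 239.9 CPM. The growth factor gene VEGFC averaged 203 ± 164 CPM (SD, n = 3), above the median of kept genes, but was not kept, having 64, 8 and 44 counts.

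Of TGF-beta and BMP signalling, 8 of 63 genes were kept (12.7%, against 8.12% of all gene rows), with a share of 0.363% ± 0.0547 (SD, n = 3). The ligand gene tgfb1a had 247, 285 and 189 CPM, and SMAD3 (ENSDARG00000036096), which carries the signal to the nucleus, had 149, 164 and 314 CPM. The BMP target genes ID3 and ID2 had 362 ± 74.0 and 198 ± 7.83 CPM (SD, n = 3 each), the latter nearly equal in the 3 libraries. The first member, bmp15, a growth factor known from oocytes, had 264, 1703 and 623 CPM. Among kept genes with a symbol and a mean of at least 100 counts, bmp15 varied most beyond counting error.

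A list of genes known from the response to heart injury had 11 of 38 kept (28.9%) and a share of 0.310% ± 0.0342 (SD, n = 3). The mitogen gene igf2b was even, with 551, 569 and 628 CPM. Smaller values came from the cytokine gene il11a (103, 149.5 and 148 CPM), from hbegfa, a ligand of the EGF receptor (120.4, 101 and 198 CPM), and from STAT3 (120.4, 125 and 175 CPM). Both copies of fibronectin, FN1, were kept, at 136 ± 41.8 CPM (ENSDARG00000006526) and 111 ± 30.4 CPM (ENSDARG00000019815). NRG1, a mitogen of cardiomyocytes, had 37, 18 and 1 counts and was not kept. None of the 11 kept members was highest in replicate 1, beside 36.5% of all kept genes.

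Immediate-early and stress genes, which cells switch on within a short time of a stimulus, had 16 of 53 kept and a share of 0.486% ± 0.0699 (SD, n = 3). The AP-1 members JUND and FOSL2 had 1181, 1220.3 and 1412 CPM and 591, 622 and 1006 CPM. SOCS3 (ENSDARG00000026611), a feedback inhibitor of cytokine signalling, had 476, 907 and 688 CPM. FOS had 80.3, 139.9 and 96.9 CPM. Cell cycle genes had 7 of 50 kept (14%, against 8.12% of all gene rows) and an even share of 0.183% ± 0.00325 (SD, n = 3). CCND1, cyclin D1, had 172, 275 and 494 CPM, mcm3l of the replication helicase had 321, 198 and 258 CPM, and the proliferation marker mki67 had 120.4, 57.9 and 64.6 CPM. TOP2A had 12, 23 and 21 counts, just above the limit, and the mitotic cyclin gene CCNB2, with 12, 8 and 15 counts, fell below it.

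Markers of other heart cells were counted too. In a sorted bulk sample, fewer cells of a type and less RNA per cell cannot be told apart. Summed levels of different lists also cannot be ranked against each other, since the lists differ in size and the genes in length. Cardiomyocyte markers had 7 of 35 IDs kept and summed to 2994, 2889 and 3599 CPM. Myoglobin, mb, made up 45.7% of that with 1061, 1490.4 and 1781 CPM. The calcium channel gene RYR2 had 218, 251 and 397 CPM, and both TTN copies, titin, were kept at 258 ± 89.7 CPM (ENSDARG00000028213) and 232 ± 68.9 CPM (ENSDARG00000000563). The sarcomere genes TNNT2 (ENSDARG00000020610), cmlc1 and tpm4a were also kept, with 44, 27 and 32, with 12, 20 and 29 and with 19, 12 and 21 counts. Defining genes that were not kept include MYH7 with 37, 9 and 39 counts, the myosin light chain gene MYL7 with 14, 10 and 7, and nppa, the atrial natriuretic peptide gene, with 0 in each library.

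**Figure D4:**
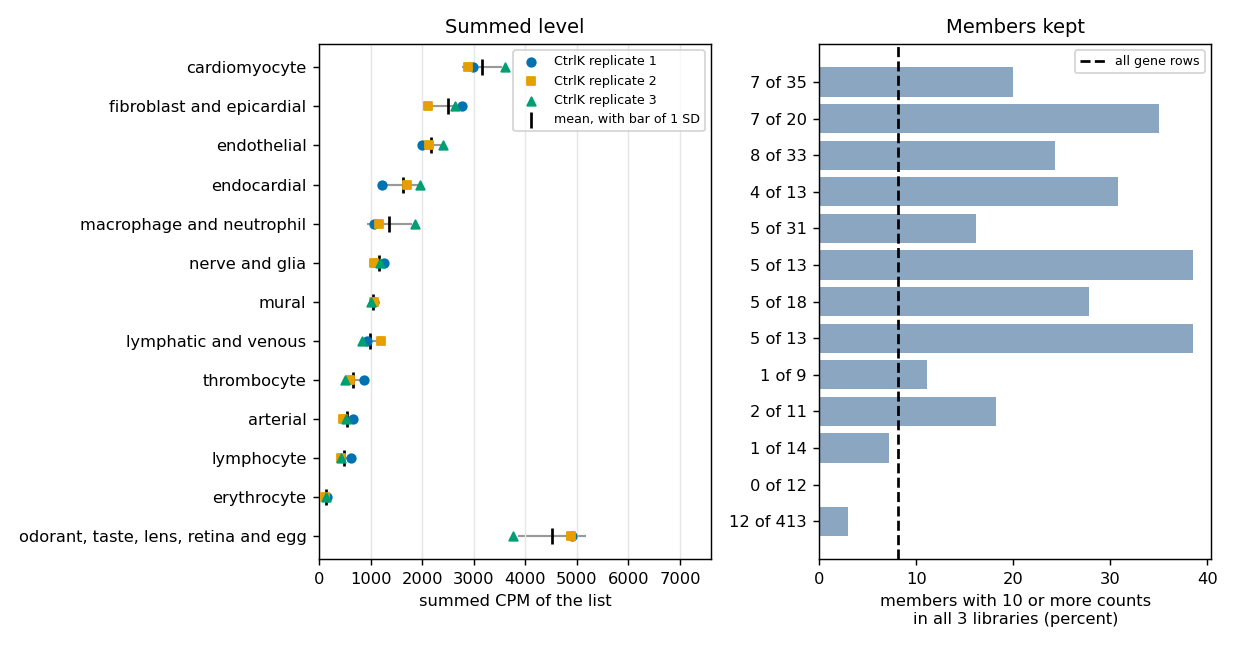
Left, summed CPM of 12 lists of cell type markers and of a list of genes of other organs in the 3 CtrlK libraries, with a tick at the mean and a bar of 1 SD (n = 3). Right, percent of each list's IDs kept, with their number, and a dashed line at the 8.12% of all gene rows. The lymphocyte and erythrocyte lists lie below the line and the other 10 of the 12 cell type lists above it. For the thrombocyte (1 of 9), lymphocyte (1 of 14) and arterial (2 of 11) lists the percent rests on 1 or 2 genes.

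Fibroblast and epicardial markers had 7 of 20 kept, with sums of 2776, 2113 and 2635 CPM, of which COL5A1 was 47.9%. PDGFRA, a receptor of fibroblasts and epicardium-derived cells, had 453, 294 and 203 CPM, and col1a1a had 206, 169 and 286 CPM. Collagens are not made by fibroblasts alone. The epicardial transcription factors were near 0, with 0, 0 and 3 counts for TCF21, 0, 1 and 0 for TBX18 and none for wt1b, while WT1 had 12, 11 and 6. Mural markers had 5 of 18 kept and steady sums of 1055, 1066 and 1015 CPM. RGS5, a pericyte gene, had 315, 400.3 and 299.9 CPM and PDGFRB 68.8, 62.7 and 73.8 CPM, and of the smooth muscle genes, both MYH11 copies were kept at 189 ± 90.1 CPM (ENSDARG00000009782) and 148 ± 60.4 CPM (ENSDARG00000100972). TAGLN (ENSDARG00000033466) was kept with 17, 17 and 11 counts, and smooth muscle actin acta2 had 2, 1 and 0 counts.

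Macrophage and neutrophil markers had 5 of 31 kept (16.1%, against 8.12% of all gene rows) and sums of 1061, 1162 and 1864 CPM. The widest range among the kept members was that of cd74b, the invariant chain of antigen presentation, with 201, 241 and 604 CPM, whereas its copy cd74a was even at 224, 260.5 and 268 CPM. The other kept members were PLEK with 16, 14 and 25 counts, laptm5 with 12, 11 and 23, and the complement gene c1qa with 14, 20 and 11. Replicate 3 was highest for 4 of the 5 kept members, beside 30.8% of all kept genes. Below the limit were the scavenger receptor gene marco with 7, 15 and 30 counts and spi1a, a myeloid transcription factor gene, with 6, 14 and 25. The pan-leukocyte gene ptprc and the lysozyme gene lyz had no count, and csf1ra, the macrophage growth factor receptor, had 5, 0 and 5. Lymphocyte markers had 1 of 14 kept (7.14%, under the 8.12% of all gene rows). It was cd8a, with 436, 323 and 360 CPM (76.0% of the list), next to 3, 0 and 0 counts for the T cell kinase gene lck. Thrombocyte markers had 1 of 9 kept (11.1%), which was THBS1, while itga2b, the defining integrin, had 0, 3 and 1 counts. Erythrocyte markers had 0 of 12 kept and summed to 137 ± 22.5 CPM (SD, n = 3). Globin hbaa1 had 1, 0 and 1 counts and hbaa2 none. No ID matched the beta-globin names planned for this list, so beta-globin was not looked at. Reads without a unique alignment, 9.20% ± 0.0319 (SD, n = 3) of each total, are in no gene count. Their part in low counts of close copies was not tested.

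Nerve and glial markers had 5 of 13 kept, with sums of 1256, 1066 and 1177 CPM. Myelin basic protein, mbpa, had 487, 241 and 263 CPM, and plp1b, a myelin proteolipid gene, had 172, 217 and 360 CPM. The synaptic gene SNAP25 was kept as 2 copies, at 209 ± 27.5 CPM (ENSDARG00000020609) and 90.1 ± 21.3 CPM (ENSDARG00000058117). SOX10 and S100B, which are markers of glia, had no count. A list of 413 odorant receptor, taste, lens, retina and egg genes, organs that were not sampled, had 12 kept (2.91%) and 235 without any count. It summed to 4903, 4886 and 3765 CPM. Its first member, olfcu1, had 872, 540.2 and 166 CPM, followed by the lens crystallin gene crygm2d14 with 459, 613 and 332 CPM and the yolk protein gene vtg8 with 275, 463 and 401 CPM. Their means of 526, 468 and 380 CPM lay above that of every member of the endothelial list but cdh5. Why such genes were counted was not tested. A level in this range therefore does not by itself show that a cell type was present.

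Set beside one another, 24.2% of endothelial, 30.8% of endocardial and 38.5% of both lymphatic and venous and nerve and glial IDs were kept. The general endothelial list was therefore not the list with the highest share kept. The endocardial, arterial and lymphatic and venous lists hold markers of endothelium too, so the sorted cells are not covered by that list alone. The lists also differ in size, so these shares do not rank cell types. The lists' median levels over all their IDs were 21.4 CPM for endothelial, 27.0 CPM for endocardial, 20.2 CPM for cardiomyocyte, 46.4 CPM for nerve and glial and 10.7 CPM for erythrocyte markers, against 3.22 CPM for all gene rows. The part of other cells in the levels of any gene given here was not tested.

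The 3 libraries agreed in their broad ranking. Across the 2642 kept genes, Spearman's rho was 0.755 between replicates 1 and 2, 0.744 between 1 and 3 and 0.765 between 2 and 3. Pearson's r of log2(CPM + 10) was 0.834, 0.826 and 0.847 for the same pairs. These are correlations across genes, which are not independent replicates, and every point carries the depth of the same libraries. The first 100 genes of a pair had 72 to 75 genes in common, and 63 genes were among the first 100 of all 3 libraries. The highest and the lowest library lay within 1.5-fold for 883 kept genes (33.4%) and within 2-fold for 1817 (68.8%), and more than 4-fold apart for 48 (1.82%). The rule of 10 counts in every library narrows these ranges. It leaves out genes low in 1 library, such as VEGFC with 64, 8 and 44 counts and NRG1 with 37, 18 and 1. To check for a library deposited again, counts were compared by a chi-square statistic per degree of freedom, which is near 1 for repeat counts of one library. It was 3.94 over 6520 genes for replicates 1 and 2, 4.36 over 6541 genes for 1 and 3 and 4.02 over 6652 genes for 2 and 3. Amplified reads are not independent molecules, so values above 1 say no more of the agreement than that no pair is such a repeat.

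**Figure D5:**
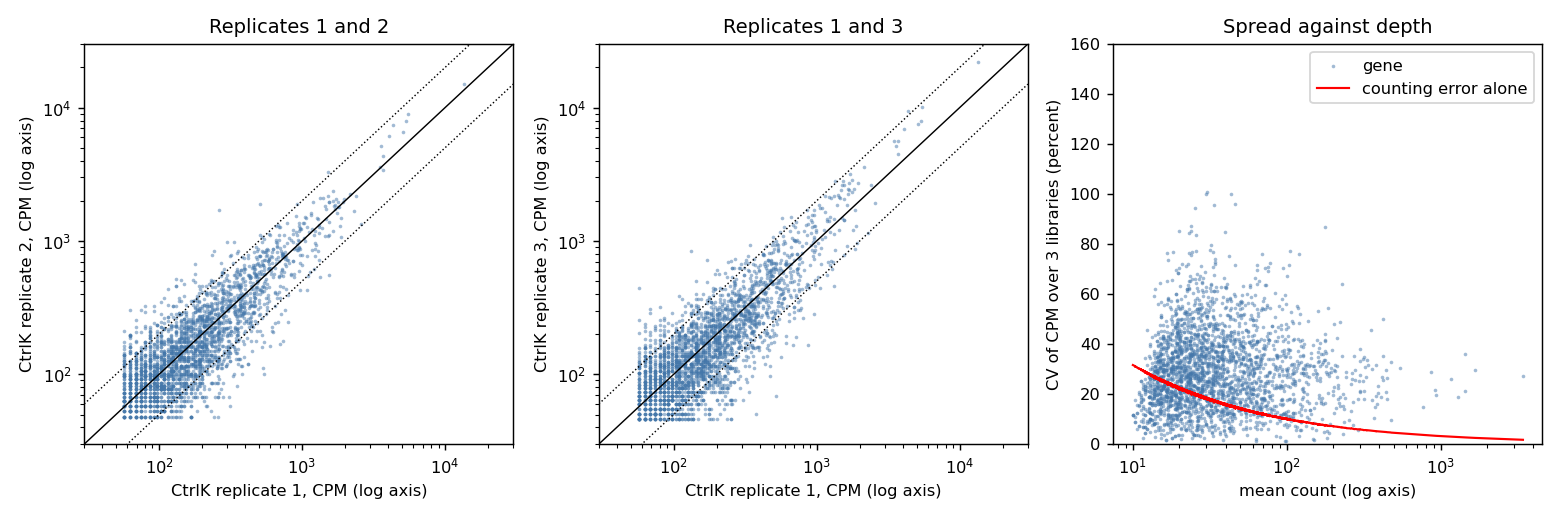
Left and middle, CPM of the 2642 kept genes in CtrlK replicate 1 against replicates 2 and 3 on log axes, with a line of equality and dotted lines at 2-fold. Right, coefficient of variation of CPM over the 3 libraries in percent against mean count on a log axis, with a red line for counting error alone; most genes of high count lie above the line.

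Spread was set beside counting error gene by gene. For the 281 kept genes with a mean of at least 100 counts, the median coefficient of variation was 26.8%, where counting error alone gives 8.15%. Of the 281, 22 were at or under their counting error. Over all kept genes the median was 27.5% against 18.4%. The common biological coefficient of variation, the spread beyond counting error estimated by edgeR, was 0.289. TMM scaling factors lay between 0.968 and 1.02, so composition shifted the libraries little.

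Among those of the 281 genes that have a symbol, the steadiest included members of the translation machinery, though others of that machinery varied. The genes named at this end spread less than counting error alone gives. RPL10A had 757, 728 and 738 CPM, RPL5 (ENSDARG00000020197) 579, 617 and 595 CPM, and EEF1G stood among them. By contrast, RPL10 had 235, 781 and 540 CPM, and the other RPL5 copy (ENSDARG00000015862) 493, 690 and 688 CPM. PPT1, a lysosomal thioesterase, had 648, 622 and 581 CPM, and the myelin-associated enzyme gene cnp had 545, 608 and 577 CPM. At the other end were the genes with a symbol that had the largest spread. bmp15 is given above. MYT1, a zinc finger factor of neural cells, had 298, 984 and 277 CPM, and ftr01 had 505, 1105 and 203 CPM. The heparan sulfate sulfotransferase gene HS6ST1 had 510.4, 1900.4 and 932 CPM. For each of these 4 genes replicate 2 was highest. PIP4K2A, a lipid kinase, had 132, 516 and 840 CPM. Both ace and olfcu1 were highest in replicate 1. The gene ace encodes the angiotensin-converting enzyme of endothelial surfaces and had 958, 598 and 281 CPM.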

How the data were processed

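RNA-seq was deposited as 1 table of raw counts per library, whole numbers per Ensembl gene, made by the authors; no comparison with the other group of the series was made. The submitters' processing notes name GRCz11 as build and, without role or order, HTSeq 0.6.1, DESeq2 1.22.2, HISAT2 2.1.0 and Trim Galore 0.6.0. For strand and annotation release, the setting is not given in the sources used here. Overlapping and antisense genes cannot be told apart with certainty. Reads shared by near-identical genes have no unique alignment and are in no gene count. Beside 32520 genes, a table lists 5 categories of reads without a gene. These held 98.8% ± 0.108 (SD, n = 3) of each total and were left out. CPM was computed from the gene total. A table of IDs named 29201 of the 32520 genes; 6314 IDs share a name, and an ID is printed where a name is shared. Symbols are human-style where the table gives them so. No coordinates, lengths or sequences were used.

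The genes, lists and rules were chosen with earlier results of these data known. Genes matched to a list by an unrelated name, such as ribosomal protein kinases, were removed by name. Named were the 30 kept genes of highest mean CPM, up to 6 kept members of each list, and all kept endothelial, endocardial and arterial markers. To these were added kdrl, cdh5, pecam1, NFATC1 and the Notch receptors. Also named were the 8 genes with the most and the 8 with the least spread beyond counting error. These were taken from kept genes with a symbol and at least 100 counts on average. Other low markers were named after their values were seen, to show what a list lacks. A few genes that fall under these rules are not reported here. Dispersion and TMM factors came from edgeR 4.0.16 (R 4.3.3) with an intercept only, DESeq2 1.42.0 was an alternative, and the step was tested on simulated data. Without groups no test was made. Alternatives were other count minimums, scalings and estimators, and leaving out each library.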

Additional observations from a re-analysis of the deposited data

How the results depend on the processing

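The number of kept genes followed the count minimum, with 4504 genes at 5 counts or more in all 3 libraries, 1407 at 20 or more and 20899 at any count; 2 libraries at a time gave 2952 to 3137. In another setting the 10 most abundant genes were left out of total, ranking and lists. There the next 10 held 2.41% and the next 100 held 14.7% of the counts. Ribosomal protein genes, now without RPL6, summed to 17509 CPM. Heat shock genes, now without AHSA1, summed to 18041 CPM. With kept members alone, endothelial markers summed to 1720.1, cardiomyocyte markers to 2587 and genes of other organs to 2659 CPM. The biological coefficient of variation was 0.412 without a filter, 0.255 for genes of at least 50 counts and 0.276 to 0.298 without 1 library. With DESeq2 it was 0.201, taken from the median of gene-wise dispersions. That is a different summary from edgeR's common value, so the 2 are not estimates of the same quantity. The lowest Spearman's rho was 0.689 without a filter and 0.689 at 50 counts or more. Without 1 library a single pair is left, so its rho, 0.744 to 0.765, only repeats the values above and checks nothing. The cause of the shifts in the biological coefficient of variation and in rho was not tested. Among other list sums and named genes, 228 values moved by less than the SD between libraries under another setting and 30 by more, 23 of them where unkept members were left out and 7 without the 10 top genes. CPM per length of coding sequence was not run, since no lengths were used. No paired analysis was possible because no groups were compared and the results come from no test. At this depth a count of 0 in a library does not tell a gene of up to 13.8 to 17.2 CPM from one at 0.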

Other observations

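Further groups of genes were counted in the same 3 CtrlK libraries. Lysosomal genes had 14 of 50 IDs kept, led by the cathepsin genes CTSB, with 958, 1182 and 1306 CPM in replicates 1, 2 and 3, and ctsla, with 487, 670.4 and 927 CPM. CTSD ran otherwise, with 625, 878 and 466 CPM. Genes of the proteasome and ubiquitin system had 19 of 105 kept, and the ubiquitin-conjugating enzyme gene UBE2Z had 1187, 1958 and 1472 CPM. Splicing genes had 16 of 76 kept, with SRSF1 (ENSDARG00000057691), a splicing factor, at 1319, 1278 and 1472 CPM. Of the 16, 11 were highest in replicate 3, beside 30.8% of all kept genes. Histone genes had 1 of 32 kept, H3-3B, a replication-independent histone H3 gene, with 195, 178 and 318 CPM, and 20 of the 32 had no count.

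Antigen presentation genes had 9 of 54 kept, and beside the cd74 genes the class II gene mhc2dhb had 115, 270.1 and 277 CPM. Interferon response genes had 3 of 60 kept (5.00%, under the 8.12% of all gene rows), and ifi27.4 held 49.7% of that list with 596, 1105 and 669 CPM. Of lipid handling, 7 of 52 were kept (13.5%). LIPG, endothelial lipase, had 373, 608 and 323 CPM, the fatty acid transporter gene CD36 had 338, 149.5 and 281 CPM, and the fatty acid binding protein gene fabp4a had 189, 203 and 258 CPM. Of iron and heme genes 3 of 16 were kept, with the ferritin gene fthl27 at 195, 314 and 346 CPM. Of antioxidant genes 3 of 60 were kept (5.00%, also under 8.12%), with the glutathione peroxidase gene gpx1b at 734, 549.9 and 581 CPM. The libraries shared no single order across these groups.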
